A study of Homo sapiens with 4 samples.

Results

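The cytosolic ribosomal protein genes encode the proteins of the large (RPL) and small (RPS) subunits of the ribosome that translates nuclear mRNAs. They were taken as the protein-coding genes of the GENCODE annotation of GRCh37 with symbols RPL or RPS plus a number, together with RPLP0, RPLP1, RPLP2 and RPSA, without RPS6K genes, readthrough genes with a hyphen and symbols that end in a letter and a further number such as RPL22L1. This rule gave 82 of 20176 protein-coding genes, 50 of the large and 32 of the small subunit, and 5 of the 82 are paralogues whose symbols end in L (RPL3L, RPL10L, RPL36AL, RPL39L and RPS27L). H3K4me3 was measured by native ChIP-Seq in MDA-MB-231, an established triple negative breast cancer cell line, in cells left untreated and in cells given Tat-SID at 1 μM or at 2.5 μM, a decoy peptide made of the SIN3 interaction domain of MAD joined to a Tat sequence that carries it into the nucleus. Each condition had 1 library and the series has 1 library of input DNA. The deposited files list regions whose H3K4me3 was called reduced at 1 μM (141 regions), reduced at 2.5 μM (2063 regions) and increased at 2.5 μM (3 regions), all against the same untreated library and without a signal value. The size of a change, the depth behind it and its spread between cultures are therefore unknown, no test between conditions was possible, and every interval below covers counting error over genes only.

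Ribosomal protein genes are among the most highly transcribed genes of growing cells, and most of their products are needed in equal numbers. For this reason their promoters are thought of as a co-regulated group. Their mRNAs typically start with a C followed by a run of pyrimidines, the terminal oligopyrimidine (TOP) motif, through which the mTOR pathway controls their translation. H3K4me3 is deposited around the start sites of transcribed genes, mostly on the nucleosomes just downstream of the transcription start site (TSS). SIN3 is a scaffold for histone deacetylases and, through other partners, for an H3K4 demethylase. Members of the MAD family bind with MAX to the E-box CACGTG.

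The start sites below, read from GRCh37, show what the promoters of this group look like, with TOP tracts in genes with and without a region of reduced H3K4me3. Each line runs from 40 bases before the TSS of the canonical transcript to base 20 of the transcript, 5′ to 3′ on the strand of the gene, and capitals mark the TOP tract (C at the TSS followed by at least 4 bases that are each C or T) and, in RPLP0, a TATAAA match. RPL39 (chrX:118925574-118925633, minus strand), RPL24 (chr3:101405543-101405602, minus strand) and RPS12 (chr6:133135668-133135727, plus strand) had the longest TOP tracts among genes with a reduced region at 2.5 μM, and RPLP0 (chr12:120638895-120638954, minus strand) was the gene of that group with a TATAAA match. RPL7A (chr9:136215033-136215092, plus strand), RPS24 (chr10:79793581-79793640, plus strand) and RPLP2 (chr11:809927-809986, plus strand) had the longest tracts among genes without a reduced region. RPL36AL (chr14:50087325-50087384, minus strand) and RPL36A (chrX:100645959-100646018, plus strand) are paralogues of which the former had a reduced region and the latter did not.
RPL39: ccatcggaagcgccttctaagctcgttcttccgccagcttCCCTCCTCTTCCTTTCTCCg
RPL24: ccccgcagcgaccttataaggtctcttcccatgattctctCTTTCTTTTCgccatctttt
RPS12: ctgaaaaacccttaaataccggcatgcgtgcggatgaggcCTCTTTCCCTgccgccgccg
RPLP0: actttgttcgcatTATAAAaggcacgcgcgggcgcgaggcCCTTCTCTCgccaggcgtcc
RPL7A: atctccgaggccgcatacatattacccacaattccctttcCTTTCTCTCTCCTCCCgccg
RPS24: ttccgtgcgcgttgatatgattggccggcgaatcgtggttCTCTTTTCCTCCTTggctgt
RPLP2: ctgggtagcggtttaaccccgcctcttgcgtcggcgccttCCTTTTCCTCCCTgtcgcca
RPL36AL: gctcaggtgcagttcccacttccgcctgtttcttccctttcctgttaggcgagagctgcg
RPL36A: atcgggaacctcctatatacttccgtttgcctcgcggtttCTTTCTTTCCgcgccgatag

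At 2.5 μM Tat-SID, 24 of the 82 ribosomal protein genes had a region of reduced H3K4me3 within 3 kb of the TSS, and in all 24 the region covered the TSS base itself. The share was 29.3% (exact Clopper-Pearson 95% confidence interval 19.7% to 40.4%), where 9.50% of all protein-coding genes had such a region. The lower bound of the interval lay above that background share. The other 58 genes had no region within 3 kb, and for 50 of them the nearest reduced region was more than 100 kb from the TSS. The background includes genes that may carry no H3K4me3 in untreated cells, from which no reduction can be called, because regions of H3K4me3 in untreated cells were not used here. Whether ribosomal protein genes stand out among genes with the mark was not tested.

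At 1 μM none of the 82 genes had a reduced region within 3 kb, or within 10 kb, of the TSS. A count of 0 of 82 has an exact interval of 0% to 4.40%, and the limit taken as 3 counts of 82 was 3.66%. The share of all protein-coding genes was 0.496%, so a share at the background level was not detectable with this number of genes. The nearest region on the 1 μM list to any of the genes was 178 kb away, from RPS27A, whose product is a fusion of ubiquitin and a small subunit protein. None of the 3 regions with increased H3K4me3 at 2.5 μM lay within 3 kb of the TSS of a ribosomal protein gene or of any other protein-coding gene (0%), and for the ribosomal protein genes the limit is again 3.66%.

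**Figure D1:**
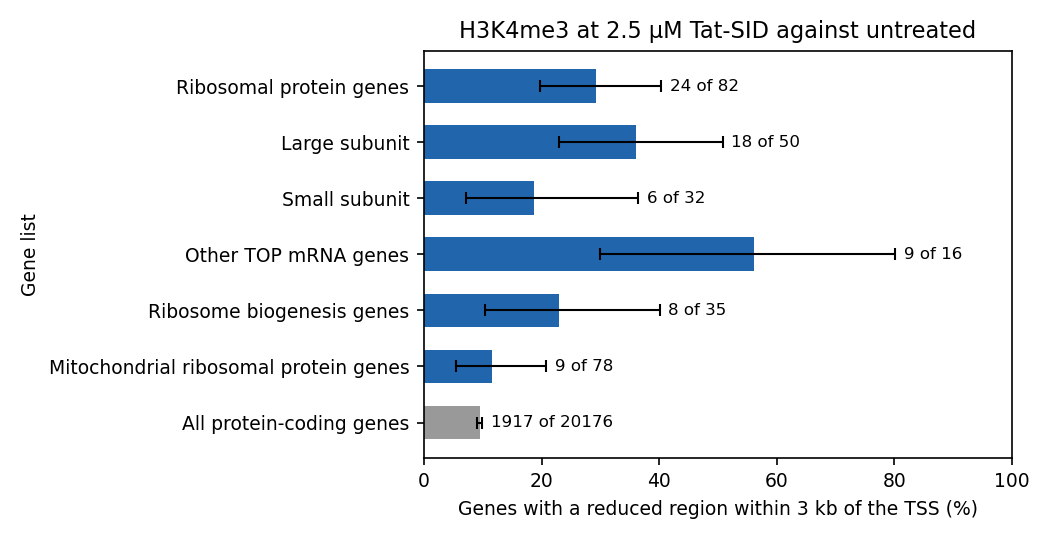
Share of genes (%, horizontal axis) with a region of reduced H3K4me3 within 3 kb of the TSS at 2.5 μM Tat-SID against untreated, for each gene list. Bars give the share, error bars the exact 95% confidence interval (counting error only), and the counts are printed beside them. Ribosomal protein genes (24 of 82) lie above all protein-coding genes (1917 of 20176), while mitochondrial ribosomal protein genes (9 of 78) lie near them.

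Genes of the large subunit made up 18 of the 24. The share was 36.0% of the 50 large subunit genes (22.9% to 50.8%) and 18.8% of the 32 small subunit genes (7.21% to 36.4%), and these intervals overlap. The lower bound for the large subunit was above the 9.50% of all protein-coding genes, and the lower bound for the small subunit was below it. Whether the subunits differed was not tested.

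Among the large subunit genes, RPLP0, which encodes the base of the stalk that recruits the translation factors, had the longest region, with 9899 bp on chromosome 12 from 120630901 to 120640799. Of its length, 1885 bp lay before the canonical TSS and 8013 bp after it, and it held all 8 exons. RPL27A on chromosome 11 had a region of 8649 bp from 8703001 to 8711649 that held all 5 exons of its transcript. RPL17, whose product lies at the exit of the tunnel through which the nascent chain leaves the ribosome, had a region of 7199 bp on chromosome 18 from 47012351 to 47019549 with all 7 exons inside. These 3 regions had the longest downstream reach of the group.

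RPL5, which carries the 5S rRNA into the large subunit together with RPL11, had a region of 5199 bp on chromosome 1 from 93296951 to 93302149. Its partner RPL11 had none, with the nearest reduced region 266 kb from the gene start. RPL23A, at the tunnel exit where the signal recognition particle docks, had a region of 7449 bp on chromosome 17 from 27042851 to 27050299, and RPL23, one of the ribosomal proteins that bind MDM2, one of 4299 bp on the same chromosome from 37006701 to 37010999. RPL39, which lines the tunnel, had a region of 5599 bp on chromosome X from 118921601 to 118927199. The genes of the 5S rRNA particle, RPL5 and RPL11, thus differed in status.

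Chromosome 3 held 4 of the large subunit genes with a reduced region, namely RPL14 (4249 bp, 40497451 to 40501699), RPL15 (6799 bp, 23955601 to 23962399), RPL24 (5349 bp, 101402001 to 101407349) and RPL35A (5199 bp, 197675651 to 197680849). RPL24 contributes to a bridge between the subunits, and RPL35A is one of the genes mutated in Diamond-Blackfan anaemia. Chromosome 4 held RPL9 (5549 bp, 39457451 to 39462999) and RPL34 (5399 bp, 109540501 to 109545899). The remaining large subunit genes with a region were RPL21 on chromosome 13 (4299 bp, 27824051 to 27828349), RPL37A on chromosome 2 (4249 bp, 217362001 to 217366249), RPL41 on chromosome 12 (4599 bp, 56509001 to 56513599), which encodes a very short peptide of the ribosome, RPL36AL on chromosome 14 (7349 bp, 50084151 to 50091499) and RPL30. Of these genes RPL36AL had the longest region, and RPL14 and RPL37A shared the shortest length.

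RPL30 encodes an RNA-binding protein of the large subunit and was the reference gene of the study for mRNA quantification, with primers for it also among the ChIP primers. At 2.5 μM a region of 5049 bp with reduced H3K4me3 covered its TSS on chromosome 8, from 99054501 to 99059549. Of its length, 1776 bp lay before the canonical TSS at 99057773 and 3272 bp after it, and it held 4 of 5 exons. The closest entry of the 1 μM list was 20057 kb away. Neither the size of the reduction nor the amount of RPL30 mRNA can be read from these lists.

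The 6 small subunit genes with a reduced region at 2.5 μM were RPS4X, RPS12, RPS18, RPS23, RPS25 and RPS29. RPS23 encodes a protein of the decoding centre and had the shortest region, with 3349 bp on chromosome 5 from 81572301 to 81575649 and 2 of 4 exons inside. RPS18, in the head of the subunit, had the longest of the 6, with 7599 bp on chromosome 6 from 33237651 to 33245249, and RPS12 had one of 6449 bp on the same chromosome from 133133301 to 133139749. RPS25, needed for initiation at several viral internal ribosome entry sites, had 5799 bp on chromosome 11 from 118886201 to 118891999. RPS4X had 4199 bp on chromosome X from 71493251 to 71497449, which reached 351 bp upstream of the canonical TSS, the smallest upstream reach of all 24. Regions thus held the whole transcript of RPS12, RPS18, RPS25 and RPS29 and part of that of RPS4X and RPS23.

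RPS29 had 2 separate reduced regions. The gene start in the annotation, at 50065882 on chromosome 14, lay in a region from 50063701 to 50068149 that also held the TSS of LRR1, and the canonical TSS at 50053098 lay in another region of 5749 bp from 50049051 to 50054799, which held all 3 exons of the canonical transcript. RPL4 was the reverse case. Its annotated gene start on chromosome 15 was 17.9 kb from the nearest reduced region, so it is not among the 24, but its canonical TSS at 66797193 lay inside a reduced region of 5099 bp from 66793901 to 66798999, which also held the TSS of ZWILCH. With canonical TSS in place of gene starts, 25 of the 82 genes had a reduced region, against 9.91% of all protein-coding genes.

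Of the genes without a region within 3 kb, RPL37 came nearest, with a region of 2199 bp 5.48 kb from its TSS. That region held the TSS of the neighbouring gene CARD6. RPL36A followed at 15.4 kb from a region at the TSS of HNRNPH2 and GLA, and then RPL4. RPL13 was the farthest, at 8815 kb, and RPS7 was 5750 kb away. The median distance was 454 kb, close to the 483 kb of the other protein-coding genes without a region.

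**Figure D2:**
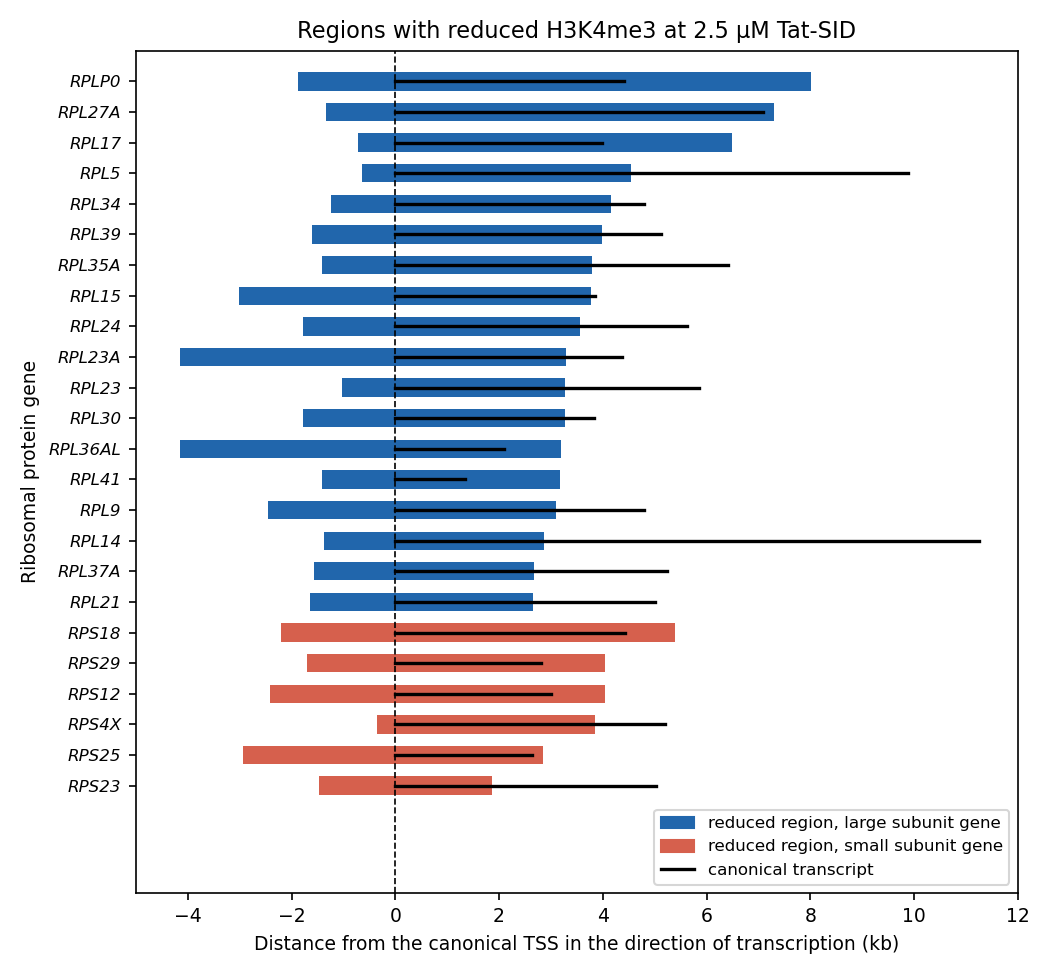
Regions of reduced H3K4me3 at 2.5 μM Tat-SID (bars, blue for large and red for small subunit genes) and canonical transcripts (black lines) of the 24 ribosomal protein genes, with the distance from the canonical TSS in kb in the direction of transcription on the horizontal axis. All 24 bars cover the TSS at 0, and 21 of them reach farther downstream than upstream. For RPS29 the region at the canonical TSS is drawn.

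The reduced regions spanned much of these compact genes. Over the 24 genes the region at the canonical TSS had a median length of 5474 bp, between 3349 and 9899 bp. For the 1885 other protein-coding genes with a reduced region the median was 5149 bp. Of the 24 regions, 17 were longer than the 4949 bp median of all 2063 reduced regions, which include regions away from any TSS of a protein-coding gene. The median reach was 1625 bp upstream and 3668 bp downstream of the canonical TSS, against 1897 bp and 3040 bp for the 1775 other protein-coding genes whose canonical TSS lay in a reduced region. The canonical transcripts had a median length of 4.80 kb, so that a median of 81.7% of the transcript lay in reduced regions and 9 of the 24 (37.5%) were covered from end to end. Among 1885 other protein-coding genes with a reduced region the median transcript length was 41.2 kb, the median covered share 6.57%, and 6.05% were covered from end to end. RPL14, with a longer transcript of 11249 bp, had the smallest covered share of the group (25.5%).

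A reduced region could hold further start sites, and the lists then do not tell at which of the genes H3K4me3 was reduced. In 11 of the 24 genes (45.8%) the region at the gene start also held the TSS of another protein-coding gene, as it did for 39.7% of the other protein-coding genes with a reduced region. These partners were LIAS at RPL9, SLC18B1 at RPS12, B3GALT4 and VPS52 at RPS18, TRAPPC4 at RPS25, LRR1 at RPS29, RAB34 at RPL23A, TRIM66 at RPL27A, MGAT2 at RPL36AL, ESYT1 and ZC3H10 at RPL41, GCN1 at RPLP0, and C18orf32 at RPL17. In the other 13 genes, RPL5, RPL14, RPL15, RPL21, RPL23, RPL24, RPL30, RPL34, RPL35A, RPL37A, RPL39, RPS4X and RPS23, no other protein-coding gene had its annotated gene start in the region. Neighbours were counted by gene start only, so a canonical or other transcript of a neighbour may still start in these regions. Introns of ribosomal protein genes often carry snoRNAs, small RNAs that guide the modification of rRNA. A reduced region was found at 9 of the 29 genes with an annotated snoRNA in the canonical transcript (31.0%), among them RPL23A with SNORD4A, SNORD4B, SNORD42A and SNORD42B, and at 15 of the 53 genes without (28.3%).

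The genes with a reduced region were spread unevenly over the chromosomes. All 17 ribosomal protein genes on chromosomes 16, 19 and 22 lacked a reduced region, 12 of them on chromosome 19, where 2.70% of all protein-coding genes had one, and the shares on chromosomes 16 and 22 were 2.44% and 1.56%. The interval for 0 of 17 genes was 0% to 19.5%, so shares as low as these were not detectable with this number of genes. Off these 3 chromosomes 24 of 65 genes had one (36.9%), with 18 of 42 large subunit genes (42.9%) and 6 of 23 small subunit genes (26.1%). Of the other protein-coding genes off these 3 chromosomes, 10.4% of those with a GC content below 53.8% around the TSS had one, and 10.9% of the rest. On chromosome 3 a region was found at 4 of 8 ribosomal protein genes, where 11.1% of all protein-coding genes had one. If each gene had the share of the other protein-coding genes on its own chromosome, 7.31 of the 82 genes would carry a region, 4.45 of the large and 2.86 of the small subunit, against 24, 18 and 6 observed. The chromosome shares include genes that may carry no H3K4me3 in untreated cells, and what chromosome adds to the counts was not tested. Grouping chromosomes 16, 19 and 22 was chosen with their low shares known.

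**Figure D3:**
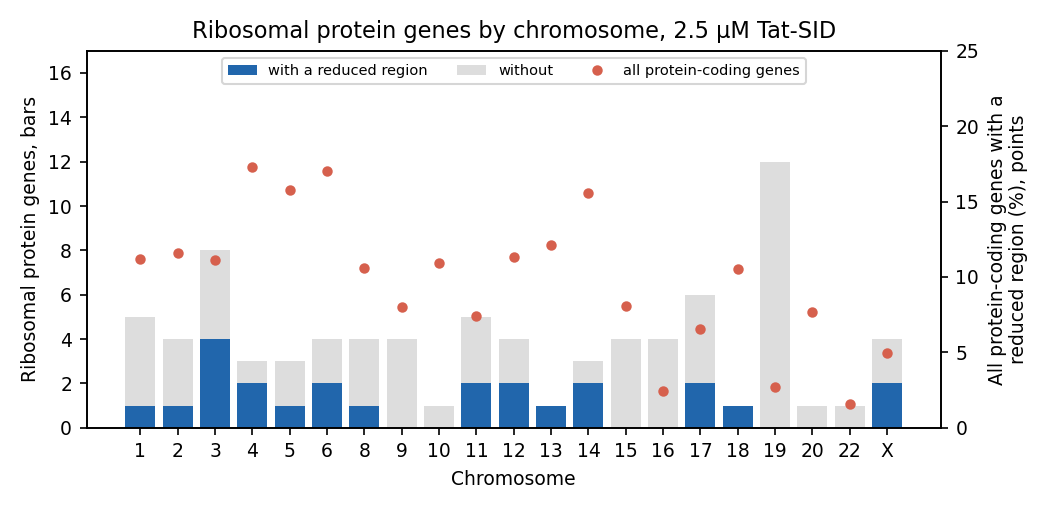
Ribosomal protein genes on each chromosome (bars, left axis, number of genes) with (blue) and without (grey) a region of reduced H3K4me3 within 3 kb of the TSS at 2.5 μM Tat-SID, and the share of all protein-coding genes with such a region (points, right axis, %). None of the 12 genes on chromosome 19 has one, while 4 of 8 on chromosome 3 do.

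Genes with a reduced region had a lower median promoter GC content, with overlapping ranges, and chromosome moved with it. Within 1 kb of the canonical TSS the median GC content was 50.5% in the 24 genes and 54.8% in the other 58, while the median observed to expected CpG ratio was 0.732 and 0.720. Split at the median GC content of the 82 genes, 53.8%, a region was found at 19 of 41 genes below (46.3%, 30.7% to 62.6%) and at 5 of 41 at or above it (12.2%, 4.08% to 26.2%). The 5 were RPL15, RPL27A, RPL36AL, RPLP0 and RPS25. Other protein-coding genes, split at the same value, had shares of 9.74% and 9.43%. All 17 genes on chromosomes 16, 19 and 22 were at or above the median, and without them the shares were 46.3% (30.7% to 62.6%) and 20.8% (5 of 24, 7.13% to 42.2%), with intervals that overlap. Whether the shares differed was not tested. Other protein-coding genes off these chromosomes had shares of 10.4% below and 10.9% at or above the same value. Below and at or above the same value, a region was found at 14 and 4 of 25 large subunit genes each, and at 5 and 1 of 16 small subunit genes each. If each gene had the share of other protein-coding genes in its class of GC content, with 10 classes, 9.14 genes would carry a region. The classes include genes that may carry no H3K4me3 in untreated cells, and what GC content adds to the count was not tested.

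Of the 24 genes with a region 50.0% had a CpG promoter, defined by a GC content over 50% and an observed to expected ratio over 0.6, and of the other 58 genes 75.9%. A reduced region was found at 12 of 56 genes with a CpG promoter (21.4%, 11.6% to 34.4%), against 13.3% of all protein-coding genes with one, and at 12 of 26 genes without (46.2%, 26.6% to 66.6%), against 5.72% of all protein-coding genes without. Both intervals overlap, and whether the shares of ribosomal protein genes differed was not tested. Of the 12 genes with a region and no CpG promoter, RPL17, RPL34, RPL37A and RPS18 had a ratio of 0.6 or less. The others missed the definition by GC content alone, so this split partly repeats the GC split above. The shares of all protein-coding genes include genes that may carry no H3K4me3 in untreated cells. Of the 17 genes on chromosomes 16, 19 and 22, 16 had a CpG promoter, and without them the shares were 12 of 40 (30.0%, 16.6% to 46.5%) with a CpG promoter and 12 of 25 (48.0%, 27.8% to 68.7%) without. For all protein-coding genes off these chromosomes the shares were 14.9% with a CpG promoter and 6.43% without.

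**Figure D4:**
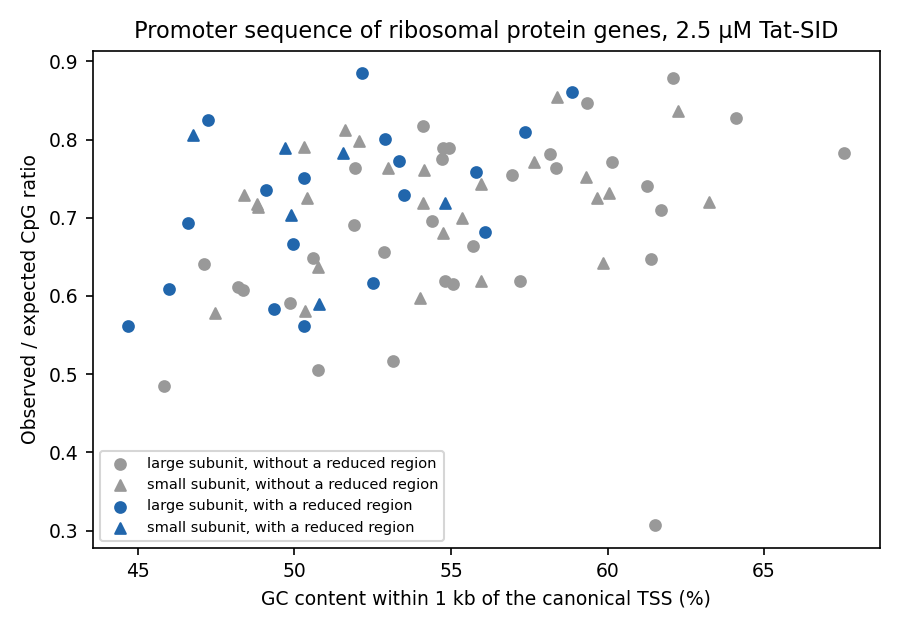
GC content (%, horizontal axis) and observed to expected CpG ratio (vertical axis) within 1 kb of the canonical TSS of the 82 ribosomal protein genes, with circles for large and triangles for small subunit genes and blue for genes with a reduced region at 2.5 μM Tat-SID. Blue symbols have a median GC content of 50.5% and grey symbols of 54.8%.

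Genes with and without a TOP start had reduced regions in like shares. An annotated TOP start was found in 58 of the 82 genes, and a reduced region in 17 of these (29.3%, 18.1% to 42.7%) and in 7 of the 24 without (29.2%, 12.6% to 51.1%). Over all protein-coding genes 116 of 912 with a TOP start had a region (12.7%), and 9.49% of those without. RPL39, with a tract of 19 bases, had a region, and RPL7A and RPS24, with tracts of 16 and 14 bases, did not. The search reads the tract from the annotated TSS base, and a tract that begins before it is missed, as in RPL36AL, where most of a run of pyrimidines lies just before the TSS.

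Letters of other promoter motifs were searched from 250 bases before to 50 bases after the canonical TSS, on both strands. The E-box CACGTG was present in 1 of the 24 genes with a reduced region (RPL23) and in 4 of the 58 without, and in 8.77% of all protein-coding genes. CCGGAA, the core of ETS factor sites, was present in 11 of 24 genes with a region (45.8%) and 34 of 58 without (58.6%), against 22.8% of all protein-coding genes. ATGGCG, a core of YY1 sites, which also occurs in start codon contexts, was present in 9 of 24 (37.5%) and 17 of 58 (29.3%), against 14.7%. GGGCGG, the core of SP1 sites, was present in 13 of 24 (54.2%) and 38 of 58 (65.5%), against 61.5%. TATAAA was searched on both strands from 50 bases before to 1 base before the TSS. It was present in 1 of 24 (RPLP0) and 5 of 58, against 4.73%. Among the 5, RPL3 and RPS3 had a match on the strand opposite to the gene. CCGGAA and ATGGCG were thus common in the group as a whole, with and without a reduced region.

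Paralogues of ribosomal protein genes arose by copying, and several are used in particular tissues, such as RPL3L in muscle and RPL10L in testis. RPL36AL had a reduced region and its paralogue RPL36A on chromosome X did not. RPL39 had a region and RPL39L did not, with the nearest 390 kb from its gene start. For RPL3 and RPL3L, RPL10 and RPL10L, and RPS27 and RPS27L neither gene of the pair had one. RPL22L1, which the rule leaves out because its symbol ends in L1, had a region of 5399 bp over its TSS on chromosome 3, from 170584251 to 170589649, while RPL22 on chromosome 1 had none within 1806 kb. The other genes of this kind, RPL7L1 and RPL26L1, had none within 3 kb. Of the pairs with different status, RPL36AL and RPL36A and RPL22L1 and RPL22 had the region at the gene with the added suffix, and RPL39 and RPL39L at the gene without it.

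Lists of related genes gave the following counts at 2.5 μM, where 9.50% of all protein-coding genes had a reduced region. RACK1, which encodes a protein of the small subunit under another name, had a region of 8699 bp over its TSS on chromosome 5. Of 16 other genes whose mRNAs are known for TOP starts, most of which encode translation factors, 9 had a region (56.2%, 29.9% to 80.2%), namely the elongation factor gene EEF1A1, the initiation factor genes EIF3A, EIF3E and EIF4B, the poly(A)-binding protein gene PABPC1, BTF3 and TPT1, the splicing factor gene HNRNPA1 and the histone chaperone gene NAP1L1. At EEF1A1 the region was the longest of the 9, with 9599 bp, and lay 0.911 kb from the annotated gene start. The 7 without a region within 3 kb were the elongation factor genes EEF1B2, EEF1D, EEF1G and EEF2, the initiation factor genes EIF3F and EIF3H, and NACA. Of 35 ribosome biogenesis genes, 8 had a region (22.9%, 10.4% to 40.1%), among them NPM1 and the box C/D snoRNP genes NOP56 and NOP58, with the others being BRIX1, GNL3, POLR1A, RRS1 and WDR12. The 78 genes of the mitochondrial ribosome had 9 (11.5%, 5.41% to 20.8%), a share near the background. At 1 μM none of the genes of these lists had a reduced region within 3 kb. The TOP mRNA and biogenesis lists were written with earlier results of these data known, and differences between the lists were not tested.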

How the data were processed

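The authors isolated mononucleosomes with micrococcal nuclease, sequenced H3K4me3 ChIP and input libraries, aligned reads to hg19 (GRCh37) with Bowtie 1.0.0 after FastQC 0.10.0, and called regions that differed between each treated library and the untreated library with SICER-df. A read that aligned to several places could be kept at 1 of them, so reads of near-identical copies can be misplaced. The names of the deposited lists carry the false discovery rate (FDR) threshold that the study gives for reduced regions, which is stricter than the one in its methods. The deposited lists hold chromosome, start and end, and no depth, fold change or FDR. Positions are printed from 1. No region lay on an unknown chromosome or beyond a chromosome end of GRCh37.

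Genes came from GENCODE release 44 mapped to GRCh37, and the canonical transcript is the one tagged Ensembl canonical. A gene had a reduced region when 1 lay within 3 kb of its TSS, the gene start on its strand. GC content and CpG ratio cover the 1 kb before and after the canonical TSS of 19814 protein-coding genes. Intervals are exact Clopper-Pearson 95% intervals, and the limit for a count of 0 is 3 counts of the total. Genes were not treated as replicates and no p-value was computed. Distances were tested on simulated regions. The genes named were every member with a region within 10 kb, RPL30, the 3 nearest and 3 farthest members without one (some of which are not reported here), genes of the other lists with a region, and genes that share a region with a member. RPL11, RPL22, RPL22L1, the paralogue pairs, RPS27A, the genes whose start sequences are shown, the neighbours of RPL37, RPL36A and RPL4, the TOP mRNA genes without a region within 3 kb and the pseudogenes were named after their values were seen. The members and lists were chosen with earlier results of these data known. Python 3.11.15 was used, with pysam 0.24.0, scipy 1.17.1 and numpy 2.4.6. Alternatives covered the TSS window and definition, membership and region length.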

Additional observations from a re-analysis of the deposited data

How the results depend on the processing

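The number of ribosomal protein genes with a reduced region at 2.5 μM, 24, lay between 23 and 25 under all 10 alternatives. RPL4 was added by canonical TSS and by the TSS of every transcript, RPL37 by a window of 10 kb, RPL22L1 by adding symbols that end in L1 and RACK1 by adding genes under other names. RPL36AL was lost when paralogues ending in L were left out, and RPS23 with regions of at least 4000 bp. At 1 μM the number was 0 in each. Leaving out chromosomes 16, 19 and 22 for the GC and CpG shares and the settings for the subunits were added after the data were seen, and the latter gave 18 or 19 large and 5 or 6 small subunit genes. With a window of 10 kb the list of TOP mRNA genes went from 9 to 11, by NACA and EIF3H, and the mitochondrial and biogenesis lists stayed at 9 and 8. Stricter thresholds could not be tried without a value for each region. No paired analysis was possible because every condition had a single library and nothing was tested between conditions. Depth is unknown, so a gene missing from a list may have changed below the threshold.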

Other observations

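The human genome holds many processed pseudogenes of ribosomal protein genes, copies made from spliced mRNA that carry the exon sequence without the promoter. Of 1587 annotated pseudogenes with a ribosomal protein symbol, 9 overlapped a region of reduced H3K4me3 at 2.5 μM Tat-SID (0.567%) and 1 overlapped one at 1 μM, where 70 of all 15399 annotated pseudogenes (0.455%) overlapped one at 2.5 μM. The 9 were RPL11P4, RPL23AP53, RPL29P15, RPL29P34, RPL30P11, RPL36AP44, RPLP1P13, RPS29P16 and RPSAP52, and 6 of them lay in a region within 3 kb of the TSS of a protein-coding gene. The 24 genes with a reduced region had a median of 17 annotated pseudogenes each and the 58 without one a median of 10.5. RPL21, with 133, had the most of all and had a reduced region, while RPL7A, with 80, and RPSA, with 74, had none. What reads shared with these copies add to a region was not tested.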
